A study of Mus musculus with 19 samples.

Results

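To ask how loss of *Park7* alters the early inflammatory reaction of microglia, CD11b+ brain cells of 5 *Park7*/DJ-1 KO mice were compared with those of 5 wildtype littermates, all injected with LPS. These 10 libraries are the LPS arm of 19 in the series, chosen by their genotype and treatment labels. All 10 mice were males of 3 to 4 months that received 4 µg LPS per g body weight (from E. coli O55:B5) intraperitoneally and were perfused 6 h later. The KO allele is a gene trap in *Park7* (XE726) in every cell of the body, whose strain designation names a second strain of origin besides B6, and the line was backcrossed to C57BL/6NCrl and bred from heterozygous pairs, so that differences are not limited to microglia. The remaining 9 mice, 5 KO and 4 wildtype, received saline and are called baseline here. Cells were enriched with CD11b magnetic beads from brain without olfactory bulb and cerebellum, and total RNA was sequenced after ribosomal depletion. The fit covered 18739 of 56980 annotated genes, and the 10676 genes with a mean of at least 100 counts over the 10 LPS libraries are called well-counted.

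*Park7* encodes DJ-1, a small redox-sensitive protein whose loss causes a recessive early-onset form of Parkinson's disease. LPS is a component of the bacterial outer membrane that is sensed by TLR4. It triggers NF-kappaB, which drives cytokine genes such as *Tnf* and *Il1b*, and a type I interferon loop that acts on interferon-stimulated response elements (ISRE). Type II interferon, made mainly by NK and T cells, acts on gamma-activated sites (GAS) and induces guanylate-binding proteins, immunity-related GTPases and, through CIITA, the MHC class II genes.

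Both elements were searched as letters in the 250 bases before the annotated canonical start of each gene, since the type II interferon response list described further on held 8 of the genes lower in KO after LPS. The windows below (GRCm39, 5′ to 3′ on the strand of the gene) are from the genes of the 2 interferon lists that were lower in KO and carried a match, with the match in capitals. The GAS letters TTCNNNGAA stood before *Tgtp2* (chr11:48955097-48955135, minus strand), *Serpina3f* (chr12:104180667-104180705, plus strand), *Serpina3g* (chr12:104202358-104202385, plus strand) and *Ciita* (chr16:10307468-10307506, plus strand). The ISRE letters, GAAA repeated after any 2 bases, stood before *Batf2* (chr19:6214380-6214419, plus strand) and *Tgtp2* (chr11:48955085-48955124, minus strand). The 2 *Tgtp2* windows overlap, and the GAS letters read the same way on both strands, whereas both strands were searched for the ISRE.
Tgtp2, GAS: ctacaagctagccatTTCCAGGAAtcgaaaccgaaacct
Serpina3f, GAS: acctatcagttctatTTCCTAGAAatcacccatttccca
Serpina3g, GAS: acctataagttatagTTCCCAGAAatca
Ciita, GAS: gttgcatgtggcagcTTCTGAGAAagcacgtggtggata
Batf2, ISRE: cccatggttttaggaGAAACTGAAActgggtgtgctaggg
Tgtp2, ISRE: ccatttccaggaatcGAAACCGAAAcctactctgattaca
Of the 9 interferon list genes lower in KO, 4 carried the GAS letters and 2 the ISRE letters. Among all 91 tested members of both lists with a promoter, 18 (19.8%) carried the GAS and 31 (34.1%) the ISRE letters, against 6.72% and 3.21% of 14469 tested protein-coding genes. Among all 78 protein-coding genes lower in KO with a promoter, 8 (10.3%) carried the GAS and 3 (3.85%) the ISRE letters. A match describes the letters and is not a bound site.

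Total counts were 15776431 to 18973244 in the KO and 11936364 to 17340044 in the wildtype mice after LPS. Microglia identity genes were abundant in every library, with *Csf1r*, the receptor that microglia need to survive, at 4736 to 7391 CPM (counts per 1000000 counts of the library after TMM scaling) in KO and 4954 to 7124 CPM in wildtype mice. Markers of other brain cells were present and uneven. The summed level of oligodendrocyte, astrocyte, neuron, vascular and choroid plexus markers was 2944 to 30051 CPM in KO and 4128 to 23447 CPM in wildtype mice, lowest in KO mouse 5 and in wildtype mouse 1. On the first principal component of the well-counted genes, with 59.6% of the variance, these 2 mice lay at the positive end (0.73 and 0.38). KO mouse 1, the highest in these markers, lay at the negative end (-0.42). KO mouse 3 stood apart on the third component, with 9.11%. Counts attributed to ribosomal RNA were 1.03% of the library in KO mouse 1, 0.164%, 0.218% and 0.347% in KO mice 2 to 4, and 0.0567% in KO mouse 5, against 0.0389% to 0.0727% in the wildtype mice. Results that rest on one of these libraries are given with and without it.

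The targeted gene was low in every KO library. *Park7* (ENSMUSG00000028964, chr4:150981579-150998903, minus strand) had 30, 53, 90, 36 and 71 counts in KO mice 1 to 5 and 405, 372, 533, 358 and 262 counts in wildtype mice 1 to 5. The groups did not overlap, and 3.45 ± 1.72 CPM in KO (SD, n = 5) were 13.6% of 25.3 ± 3.91 CPM in wildtype mice (SD, n = 5). *Park7* was 7.35-fold lower (log2FC -2.88, SE 0.38, adjusted p = 0.00679 in edgeR's quasi-likelihood test over all tested genes), and a two-sided exact permutation of the 10 labels gave p = 0.00794, the smallest that 5 against 5 mice allow. At baseline *Park7* was lower by a log2FC of -3.74 (SE 0.40).

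The neighbouring gene *Tnfrsf9* (ENSMUSG00000028965, chr4:150999019-151030559, plus strand) was the other gene past an adjusted p of 0.05 in the fit of all 19 libraries. It encodes CD137 (4-1BB), a costimulatory receptor of the TNF receptor family. *Tnfrsf9* had 15, 20, 56, 10 and 8 counts in KO mice 1 to 5 and 170, 170, 191, 455 and 243 counts in wildtype mice 1 to 5. Every KO mouse was below every wildtype mouse, with KO mouse 3 the highest of its group, and without that mouse the log2FC was -4.39. The level of *Tnfrsf9* was 12.7-fold lower in KO (log2FC -3.67, SE 0.53, adjusted p = 0.0129 in edgeR; exact permutation p = 0.00794). At baseline *Tnfrsf9* was hardly counted, with 0 to 2 counts in KO and 1 to 7 in wildtype mice, so that no fold was drawn there. The genes lie head to head. Their outermost annotated ends are 115 bases apart, while their canonical starts are 18073 bases apart.

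The other genes around *Park7* did not share this difference. Of 46 further genes tested within 2 Mb, 0 passed both thresholds used for KO against wildtype, an unadjusted p under 0.05 and a |log2FC| of at least 0.5, in edgeR, and 1 had an unadjusted p under 0.05. That gene was *Slc25a33*, a mitochondrial pyrimidine nucleotide carrier, with a log2FC of 0.33. The 46 log2FC ran from -0.78 to 0.74, and for 30 of the 33 well-counted ones the 95% interval lay within a 2-fold change in either direction, that is between -1 and 1 on the log2 scale. At baseline 3 of the 46 passed both thresholds, against 0.8% of all tested genes: *Errfi1*, a feedback inhibitor of EGFR signalling (log2FC 0.51), *Acot7*, an acyl-CoA thioesterase (-0.67), and *Nphp4*, a cilium gene (0.71). After LPS the log2FC of these genes were 0.11 for *Errfi1*, -0.28 for *Acot7* and 0.05 for *Nphp4*.

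**Figure D1:**
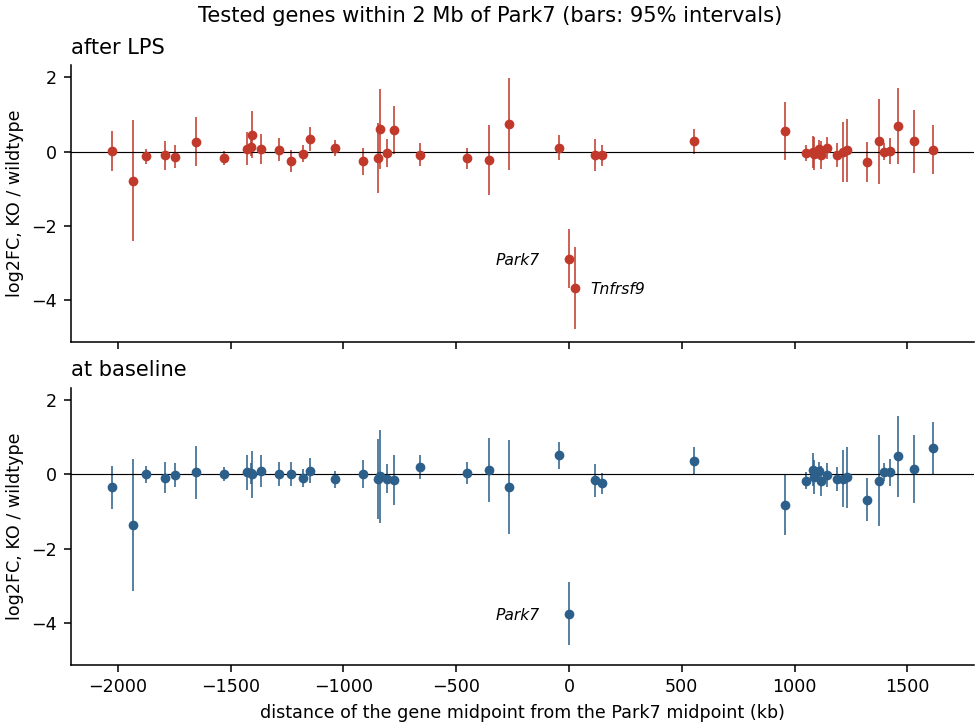
Log2FC of KO against wildtype (vertical axis, bars are 95% intervals) of the genes tested within 2 Mb of *Park7* by the distance of their midpoints in kb, after LPS (top) and at baseline (bottom, without *Tnfrsf9*, which had 0 to 7 counts per mouse there). After LPS *Park7* and *Tnfrsf9* lie at -2.88 and -3.67, while the other 46 genes lie between -0.78 and 0.74.

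Beyond this locus 0 genes passed an adjusted p of 0.05 in edgeR after LPS. Past both thresholds, 102 genes were higher and 143 lower in KO, together 1.31% of the 18739 tested. Of the well-counted genes, 29 were higher and 27 lower (0.525%). By direction, the calls were 0.544% (higher) and 0.763% (lower) of the tested and 0.272% and 0.253% of the well-counted genes. An unadjusted p under 0.05 was reached by 2.57% of the tested and 2.56% of the well-counted genes. With the size factors of DESeq2 in place of TMM, 40 well-counted genes were higher and 23 lower, and DESeq2 itself gave 44 and 24. The counts of well-counted calls moved with single mice. Those higher in KO were 22 without KO mouse 3, 45 without KO mouse 2, 46 without KO mouse 5, 66 without KO mouse 4 and 80 without KO mouse 1. Those lower in KO were 59, 50, 46 and 42 without KO mouse 3, KO mouse 4, wildtype mouse 2 and wildtype mouse 4. Over all tested genes, 204 and 164 were higher without KO mouse 1 or 5, and 270 were lower without KO mouse 5. The median absolute log2FC of a well-counted gene was 0.097 and its median SE 0.156. For 9452 of the 10676 well-counted genes (88.5%) the 95% interval lay within a 2-fold change in either direction, and for 6405 (60.0%) within a log2FC of 0.5. In these genes a difference beyond those bounds was outside the interval.

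**Figure D2:**
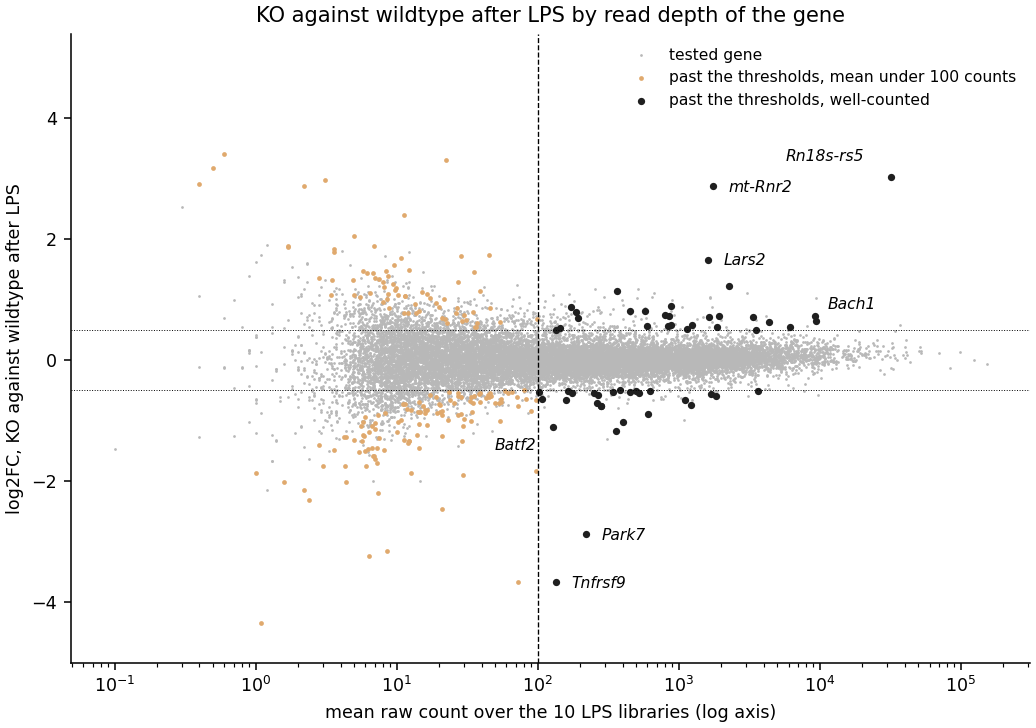
Log2FC of KO against wildtype after LPS (vertical axis) of the 18739 tested genes by their mean raw count over the 10 LPS libraries (horizontal log axis). The dashed line marks a mean of 100 counts and the dotted lines a |log2FC| of 0.5; most genes past the thresholds lie left of the dashed line, and 56 well-counted genes pass them.

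In the type II interferon response, the genes that passed were lower in KO mice after LPS. Of 43 tested members of 45, 34 had a log2FC below 0 and 8 passed both thresholds, all lower (background for lower calls 0.763% of tested genes), and 0 passed higher. The median log2FC of the list was -0.30, against 0.02 for all tested genes and -0.05 for the same list at baseline. Among its 37 well-counted members the median after LPS was -0.24. The study itself drew attention to this pathway from these mice, so the direction of the list is not independent evidence.

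Among these 8 genes, regulators and effectors of the response stood out with different firmness. *Ciita*, the master transactivator of MHC class II genes, had 48, 79, 101, 76 and 38 counts in KO mice 1 to 5 and 180, 99, 110, 79 and 84 counts in wildtype mice 1 to 5. In CPM the groups overlapped only through KO mouse 3 and wildtype mouse 4, and the log2FC was -0.83 (SE 0.24). *Batf2*, a transcription factor induced by type II interferon that acts with IRF1, had 82, 61, 90, 139 and 62 counts in KO mice 1 to 5 and 143, 121, 211, 288 and 84 counts in wildtype mice 1 to 5. Its log2FC was -1.10 (SE 0.27) after LPS and 0.16 at baseline. *Serpina3g*, a serpin protease inhibitor, was at 2.42, 2.00, 2.93, 5.26 and 0.938 CPM in KO mice 1 to 5 and at 8.53, 5.98, 5.54, 20.02 and 8.70 CPM in wildtype mice 1 to 5. Every KO mouse was below every wildtype mouse, with a log2FC of -1.84 (SE 0.50). These 3 genes passed the thresholds in all 10 fits that left out 1 mouse. *Ciita* and *Serpina3g*, with means of 89.4 and 97 counts, lay under the limit of the well-counted genes.

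The other 5 genes depended on single mice and on the fit. The MHC class II genes *H2-Aa* (log2FC -0.54) and *H2-Eb1* (-0.50), which present peptides to CD4+ T cells, passed both thresholds in 5 of 10 fits with a mouse left out. Without wildtype mouse 1, the highest of its group in both, they were at -0.40 and -0.37. Without KO mouse 1 they were at -0.44 and -0.41, without KO mouse 2 at -0.47 and -0.48, without KO mouse 5 at -0.46 and -0.41, and without wildtype mouse 4 at -0.49 and -0.48. With KO mouse 5 and wildtype mouse 1 left out together, they were at -0.32 and -0.28 and did not pass. *H2-Eb1* was at -0.49 and not called in DESeq2 or with its size factors. It was also lost with other brain cell markers as a covariate and without rRNA and mitochondrial genes. *H2-Ab1*, the partner chain of *H2-Aa*, was at -0.49, just under the fold threshold, and the invariant chain *Cd74* at -0.05. *Serpina3f* (-1.17), the GTPase *Tgtp2* (-0.75) and the guanylate-binding protein *Gbp8* (-0.99, 5 to 61 counts per mouse) were highest in wildtype mouse 4, and without it they were at -0.66, -0.43 and -0.55 and no longer passed. They also no longer passed without KO mouse 5, at -0.91, -0.55 and -0.80, where all 3 were lowest. *Serpina3f* was also lost without KO mouse 2 (-1.05) or wildtype mouse 5 (-1.17), and *Tgtp2* without wildtype mouse 3 (-0.71). With the 10 LPS libraries fitted alone, *Serpina3f*, *Tgtp2* and *Gbp8* did not pass.

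The most strongly expressed members of the list did not pass the thresholds. *Gbp5*, an inflammasome-promoting GTPase, had a log2FC of -0.13 (SE 0.27), *Cxcl10*, a chemokine, of 0.09 (SE 0.46), the receptor chain *Ifngr1* of -0.07 (SE 0.15), and the kinase *Jak1* of 0.35 (SE 0.14), the 1 member with an unadjusted p under 0.05 that was higher in KO. *Irf1*, the first-wave transcription factor of the pathway, was at -0.40 (SE 0.21). The median of the list lay between -0.41 without KO mouse 3 and -0.08 without wildtype mouse 4, the smallest shift among these fits.

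T and NK cell markers moved with the list and their part in it was not tested. Of 34 such markers, 16 were counted well enough to be tested, 12 of those were below 0, and the median log2FC was -0.38 after LPS and -0.40 at baseline. The LPS median was -0.09 without wildtype mouse 4, -0.22 without KO mouse 4 and -0.53 without KO mouse 3. *Prf1* (perforin, log2FC -1.89) and *Ncr1* (NKp46, -1.63), both of NK cells, passed lower and *Klrd1* (CD94, 1.08) higher, with means of 29.3, 7.0 and 5.0 counts. Over all tested genes, 0.763% passed lower and 0.544% higher. *Klrd1* was lost without KO mouse 5 (0.84) or wildtype mouse 4 (0.87). *Ncr1* was lost without KO mice 1, 2 or 5 (-1.38, -1.31 and -1.44), and in 4 other fits it had too few counts to be tested. The summed level of the tested markers was 165 to 386 CPM in KO and 171 to 549 CPM in wildtype mice, most of it from *Ccl5*, and without *Ccl5* it was 27.2 to 122 CPM in KO and 43.2 to 98.8 CPM in wildtype mice. The T cell genes *Cd3d*, *Cd3e* and *Cd3g* had 0 to 3 counts per library. *Ifng* itself, which encodes type II interferon, had 0 to 5 counts in KO and 1 to 25 in wildtype mice and was not tested. In bulk samples, fewer cells of a type and less RNA per cell cannot be told apart.

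**Figure D3:**
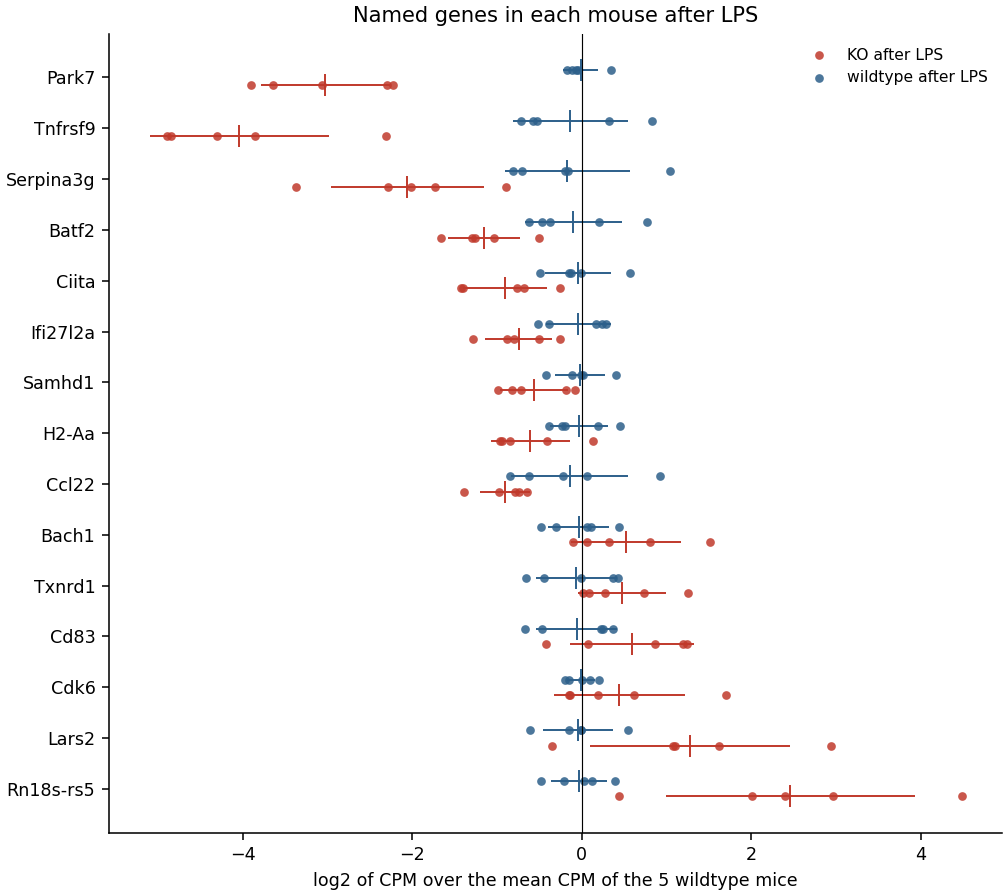
Level of 15 genes in each mouse after LPS, as log2 of the CPM over the mean CPM of the 5 wildtype mice (horizontal axis); points are mice, the tick is the group mean and the bar 1 SD. *Park7*, *Tnfrsf9*, *Serpina3g* and *Rn18s-rs5* do not overlap between the groups, while *Cdk6* and *Bach1* are set apart mainly by KO mouse 3.

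Type I interferon-stimulated antiviral genes also lay mostly below 0. Of 48 tested members of 52, 45 had a log2FC below 0 (46.7% of all tested genes did), the median was -0.23 after LPS and -0.10 at baseline, and 1 passed both thresholds. That gene was *Ifi27l2a*, an interferon-induced protein, with 152, 210, 189, 313 and 204 counts in KO mice 1 to 5 and 414, 222, 266, 362 and 299 counts in wildtype mice 1 to 5. Its log2FC was -0.70 (SE 0.22), and it passed with each mouse left out. *Irf7*, the amplifier of the loop (-0.47, SE 0.16), *Oasl2* (-0.47, SE 0.17), *Zbp1*, a sensor of Z-form nucleic acids (-0.48, SE 0.17), *Isg15*, a ubiquitin-like modifier (-0.47, SE 0.20) and *Ifi213* (-0.49, SE 0.22) had an unadjusted p under 0.05 and lay just under the fold threshold. The most abundant members, *Parp14*, *Slfn5* and *Rsad2*, were each at -0.04, and *Trim30a* at 0.12. Between mice the list ranged widely, from -0.44 to 0.46 log2 units around the mean of the 10 libraries in KO and from -0.32 to 0.55 in wildtype mice, and KO mouse 3 lay at the top of its group. The median was -0.44 without KO mouse 3, -0.15 and -0.13 without KO mouse 1 or 5, and -0.07 without wildtype mouse 4. *Samhd1*, a dNTP hydrolase that restricts viral replication and is itself induced by interferon, was lower by a log2FC of -0.52 (SE 0.17) and passed in 6 of 10 fits, with -0.40 without wildtype mouse 4 and -0.44, -0.47 and -0.42 without KO mouse 1, 2 or 5.

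MHC class I and immunoproteasome genes had 16 of 21 members below 0 and a median of -0.17, and 0 passed both thresholds (1 had an unadjusted p under 0.05 in edgeR). The median was -0.05 without KO mouse 1 and -0.08 without wildtype mouse 4. The member with that p was *H2-T23* (-0.32, SE 0.14). The proteasome subunits *Psmb8* and *Psmb9* were at -0.32 and -0.36, and the class I chains *H2-K1*, *H2-D1* and their partner *B2m* at 0.03, -0.06 and -0.14.

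Replication-dependent histone genes lay lower in KO. Of 31 tested members of 35, 28 had a log2FC below 0 (46.7% of all tested genes did), and the median was -0.28 (-0.14 at baseline), between -0.31 and -0.21 with each mouse left out. The mean deviation of the members from the 10-library mean was -0.20, -0.33, -0.06, 0.02 and -0.23 log2 units in KO mice 1 to 5 and 0.20, 0.21, 0.15, 0.09 and 0.15 in wildtype mice 1 to 5. The groups did not overlap, nor did they without *H1f0*, a linker histone outside S phase control, where all 14 well-counted members were below 0. *H4c9* (-0.69, SE 0.25) and *H2bc7* (-1.34, SE 0.39, mean of 5.7 counts) passed both thresholds (0.763% of tested genes passed lower), with every KO mouse below every wildtype mouse (0.16% of tested genes were so, and 0.0587% the other way round). *H4c9* was at -0.49 without KO mouse 3. Of 22 further tested histone cluster genes outside the list, looked up after values were seen, 17 were below 0, 4 passed lower (*H2bc3*, *H2bc11*, *H2bc13* and *H2ac10*) and 0 passed higher. Histone genes are near-identical copies, so that reads can be split between them, and their messages mostly lack poly(A) tails. Genes of the cell cycle and DNA replication had 32 of 48 members below 0 and a median of -0.09, with *Cdk6*, a G1 kinase (0.63), and *Chaf1b*, a histone chaperone (0.95), higher and *Plk1*, a mitotic kinase (-0.68), lower. *Chaf1b* passed without KO mouse 1 or 2 or wildtype mouse 4 but in none of the other 7 fits that left out a mouse, and was weakest without KO mouse 5 (0.55). *Plk1* was lost without KO mouse 1, 2 or 5 and without wildtype mouse 2, 4 or 5 (-0.67 to -0.51).

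**Figure D4:**
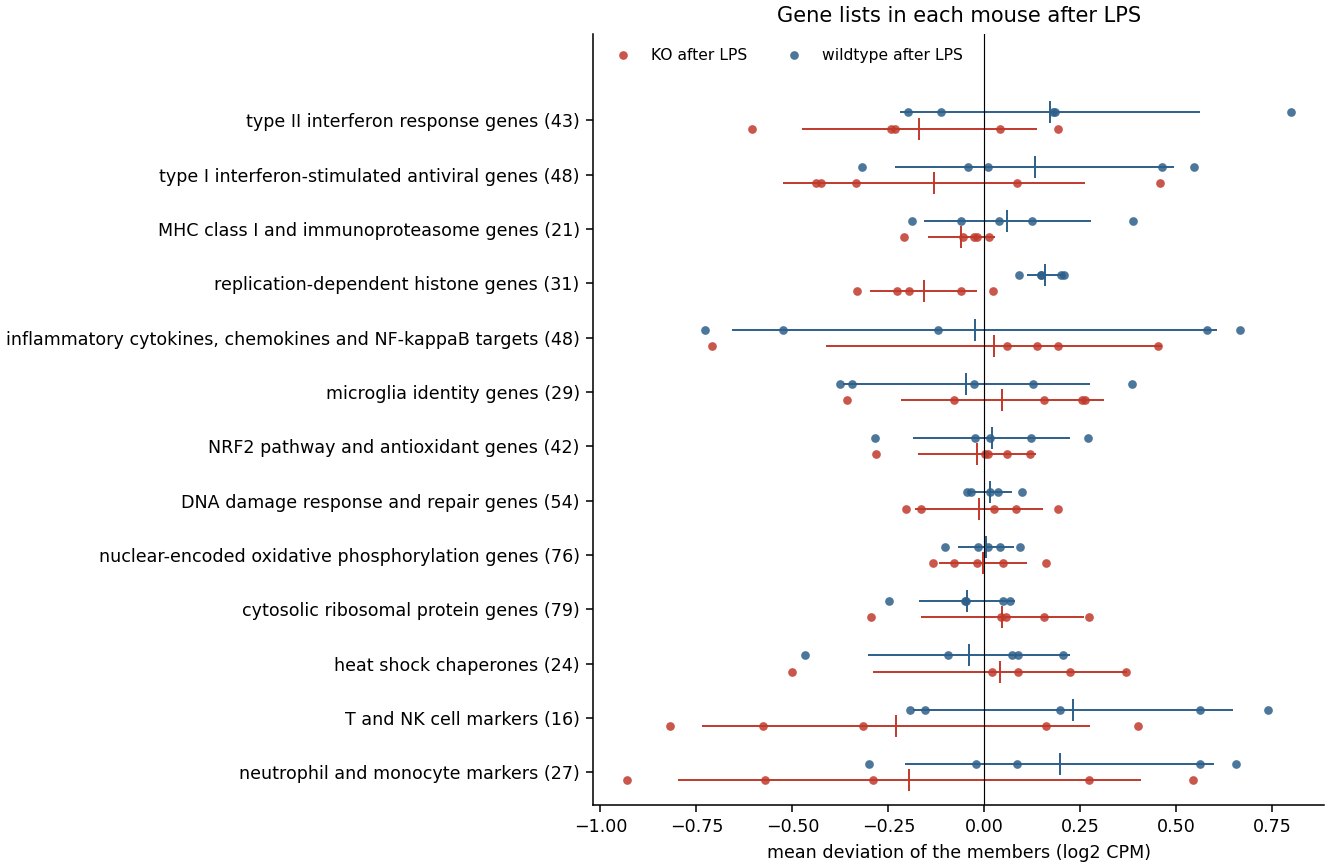
Mean deviation of the tested members of each gene list (number in brackets) from the mean of the 10 LPS libraries, in log2 CPM, for each KO and wildtype mouse; ticks are group means and bars 1 SD. The histone genes are the list shown whose groups do not overlap, at -0.33 to 0.02 in KO against 0.09 to 0.21 in wildtype mice.

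Further well-counted genes lower in KO were of varied function. *Zdhhc12*, a protein palmitoyltransferase, had 96, 109, 59, 95 and 88 counts in KO mice 1 to 5 and 153, 128, 136, 110 and 106 counts in wildtype mice 1 to 5, with a log2FC of -0.64 (SE 0.19) and no overlap of the groups in CPM. *Zfp771*, a zinc finger gene, did not overlap either and was at -0.54 (SE 0.17), and at -0.46 without KO mouse 3 and -0.44 without KO mouse 4. *Spn* (CD43), a leukocyte sialoglycoprotein, was at -0.66 (SE 0.24) and passed with each mouse left out. *Ccl22*, a chemokine for regulatory T cells, was at -0.89 (SE 0.29), and no longer passed without wildtype mouse 5 (-0.52). *Bicra*, a chromatin remodelling subunit (-0.52), *Kmt5c*, a histone H4 methyltransferase (-0.54), *Trp53i13* (-0.52) and *Siglec1*, a sialic acid receptor of border macrophages (-0.56), were lost without wildtype mouse 1, at -0.36, -0.41, -0.30 and -0.40. Other single mice also ended these calls: for *Bicra* KO mice 1 to 3 (-0.48, -0.50 and -0.46), for *Kmt5c* KO mice 2, 3 and 5 (-0.49, -0.43 and -0.50) and wildtype mouse 2 (-0.50), for *Trp53i13* KO mouse 3 (-0.45) and for *Siglec1* KO mice 1 and 3 (-0.45 and -0.42). *Mlph*, a linker of vesicles to actin motors, rested on that mouse alone, with 4479 counts there and 1114 to 1941 in the other wildtype mice, and its log2FC went from -0.60 to -0.21 without it. Of the 27 lower genes, 6 passed with every mouse left out in turn: *Park7*, *Tnfrsf9*, *Batf2*, *Zdhhc12*, *Ifi27l2a* and *Spn*.

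Among well-counted genes, the 2 largest gains in KO were of ribosomal RNA. *Rn18s-rs5*, a copy of the 18S rRNA gene, had 161123, 28450, 35755, 56782 and 7614 counts in KO mice 1 to 5 and 5889, 8098, 4828, 6325 and 5150 counts in wildtype mice 1 to 5. Every KO mouse was above every wildtype mouse in CPM, though KO mouse 5 only narrowly. The log2FC was 3.03 (SE 0.64), and between 2.22 and 3.30 with 1 mouse left out. The mitochondrial rRNA genes *mt-Rnr2* (2.88, SE 0.72) and *mt-Rnr1* (1.22, SE 0.53) were highest in KO mouse 1, and without it they were at 1.48 and 0.10. *mt-Rnr1* also no longer passed without wildtype mouse 1, 3 or 4 (1.10, 1.19 and 1.13). *Lars2*, a mitochondrial leucyl-tRNA synthetase, was at 1.66 (SE 0.44), and at 1.03 without KO mouse 1. It had 6327, 1728, 1624, 2536 and 503 counts in KO mice 1 to 5 against 502 to 1034 in wildtype mice. The kit removes ribosomal RNA before sequencing, and how completely it did so in each library was not tested. *Rn18s-rs5*, *mt-Rnr2* and *Lars2* were the 3 of 29 higher genes that passed with every mouse left out.

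The other well-counted genes higher in KO rested largely on KO mouse 3, which was the highest KO mouse for 19 of the 29. Without it 7 of the 29 still passed. *Bach1*, a repressor of antioxidant and haem genes, had 7644, 10076, 21936, 8567 and 11121 counts in KO mice 1 to 5 and 5522, 5657, 7986, 9581 and 5821 counts in wildtype mice 1 to 5. Its log2FC was 0.65 (SE 0.25), and 0.31 without KO mouse 3. Likewise *Txnrd1*, a thioredoxin reductase, went from 0.55 to 0.31, *Hivep2*, a zinc finger regulator of NF-kappaB sites, from 0.72 to 0.43, *Cdk6* from 0.63 to 0.17, *Apaf1*, the core of the apoptosome, from 0.55 to 0.19, *Prkca*, a protein kinase C, from 0.58 to 0.27, *Atp8a2*, a phospholipid flippase, from 0.71 to 0.28, *Nav2* from 0.51 to 0.24, *Atxn1* from 0.56 to 0.29 and *Trim30c* from 0.57 to 0.15. The B7 family member *Cd276* went from 0.82 to 0.05. *Lmnb1*, a nuclear lamin (0.59), no longer passed without KO mouse 3 (0.40) or KO mouse 5 (0.43). *Cd83*, an activation marker that steadies MHC class II at the surface (0.73), lost its p without KO mouse 3 or KO mouse 5, with a log2FC still at 0.58 and 0.56. *Ildr1* (0.79) no longer passed without them either (0.57 and 0.46). *Rasgef1b*, an LPS-induced exchange factor (0.73), and *Galnt3* (0.50) depended on KO mouse 5, at 0.38 and 0.30 without it. Without wildtype mouse 1 the calls also ended for *Cd83* (0.63), *Hivep2* (0.56), *Apaf1* (0.51), *Txnrd1* (0.43), *Cd276* (0.85), *Atxn1* (0.47) and *Nav2* (0.50). Wildtype mouse 2 had this part for *Cd83* (0.60), *Apaf1* (0.46), *Txnrd1* (0.47), *Cd276* (0.81), *Cdk6* (0.60) and *Trim30c* (0.52), and wildtype mouse 3 for *Apaf1* (0.51), *Ildr1* (0.73) and *Cd276* (0.87). For wildtype mouse 4 these were *Atp8a2* (0.59), *Galnt3* (0.42), *Cd276* (0.83), *Atxn1* (0.52), *Prkca* (0.49) and *Nav2* (0.49), and for wildtype mouse 5 *Galnt3* (0.43), *Cd276* (0.76), *Cdk6* (0.60), *Prkca* (0.48) and *Nav2* (0.46). *Atxn1* (0.46) and *Nav2* (0.50) were lost without KO mouse 1 as well, and *Apaf1* (0.55) without KO mouse 5.

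Gene length moved with the level of single mice, and its part in the calls was not tested. When well-counted genes were split into 5 groups of equal size by exon length, the median deviation of KO mouse 3 rose from -0.06 log2 units in the shortest to 0.08 in the longest group, while that of KO mouse 5 fell from 0.16 to 0.01. Of the well-counted genes higher in KO, 9 were in the longest and 9 in the shortest group, and of those lower in KO 0 were in the longest and 13 in the shortest.

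Inflammatory cytokines, chemokines and NF-kappaB targets leaned slightly upward. Of 48 members, 31 had a log2FC above 0 (53.3% of all tested genes did). The median was 0.11, against 0.02 for all tested genes, and *Ccl22* alone passed both thresholds. *Tnf* was at 0.26 (SE 0.30), *Il1b* at 0.18 (SE 0.37), *Il6* at 0.15 (SE 0.30) and *Nos2*, the inducible nitric oxide synthase, at -0.46 (SE 0.51). The most abundant members were the NF-kappaB inhibitor *Tnfaip3* (0.08), the STAT3 inhibitor *Socs3* (0.21), the lipopeptide receptor *Tlr2* (0.20) and the LPS co-receptor *Cd14* (0.11). The spread between mice of one genotype was large, with the mean deviation of the list between -0.71 and 0.45 log2 units in KO and between -0.73 and 0.67 in wildtype mice, and the median was -0.03 without KO mouse 5 and 0.28 without wildtype mouse 4.

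Microglia identity genes, of which 29 of 30 were tested, had a median of 0.07, and 0 passed both thresholds (0 had an unadjusted p under 0.05 in edgeR, 28 had a 95% interval within a 2-fold change). *Csf1r* was at 0.13, *Ctss*, a cathepsin, at 0.15, *Tmem119* at -0.08 and the purinergic receptor *P2ry12* at 0.24. Of the costimulatory and checkpoint molecules, 25 of 30 were tested, with *Tnfrsf9* and *Spn* lower and *Cd276* higher. *Cd86* was at 0.28, *Vsir* at -0.30 and *Icosl* at -0.10.

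Antioxidant, DNA repair and cell death genes were close to the median of all genes. The NRF2 pathway and antioxidant list of 42 had a median of 0.03, with *Txnrd1* past the thresholds. *Gpx1*, a glutathione peroxidase, was lower in every KO mouse than in any wildtype mouse, at 60.1, 53.4, 47.3, 57.1 and 59.9 CPM against 86.0, 68.6, 77.2, 66.1 and 65.5 CPM, with a log2FC of -0.39 (SE 0.13) that stayed under the fold threshold. *Keap1*, the repressor of NRF2, had an unadjusted p under 0.05 as well, at -0.20 (SE 0.08). *Hmox1*, haem oxygenase, was at -0.11, and *Nqo1*, a quinone reductase, at -0.13. The 54 DNA damage response and repair genes had a median of 0.01. Of these, *Ung*, a uracil glycosylase, passed higher (0.87) and the excision repair gene *Xpa* (-0.72) and the Fanconi gene *Fanca* (-0.71) lower. Each had a mean under 50 counts, and 0.544% of all tested genes passed higher and 0.763% lower. *Ung* was at 0.39 without KO mouse 5, and *Xpa* at -0.54 without wildtype mouse 1, and neither passed there. *Ung* was also lost without wildtype mouse 4 or 5 (0.79 and 0.77). *Fanca* passed without KO mouse 4 or wildtype mouse 2 or 3 but in none of the other 7 such fits, and was at -0.55 without wildtype mouse 4. All 43 well-counted members of the list had a 95% interval within a 2-fold change. Among 38 apoptosis regulators, with a median of 0.01, *Apaf1* passed.

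Genes of protein synthesis and folding leaned slightly upward without any passing the thresholds. Of 79 cytosolic ribosomal protein genes 63 were above 0 (53.3% of all tested genes were), with a median of 0.12 after LPS and 0.24 at baseline. Ribosome biogenesis factors had 45 of 50 above 0 and a median of 0.09. Heat shock chaperones had 23 of 24 above 0 and a median of 0.14, with *Hsp90aa1* at 0.38 (SE 0.20) and *Hspa9*, the mitochondrial HSP70, at 0.21 (SE 0.09). Without KO mouse 5 the heat shock median was -0.01 and that of ribosome biogenesis 0.004, and without KO mouse 2 the ribosomal protein median was 0.06. Of 13 mitochondrially encoded genes, the 7 tested were all above 0, with a median of 0.29 (0.04 without KO mouse 3). The 6 others had 0 to 5 counts per LPS library and were not tested. The 76 nuclear genes of oxidative phosphorylation had a median of 0.01 (0.11 at baseline), the 30 glycolysis and hypoxia genes of -0.08, the 33 cholesterol genes of -0.05, the 41 lysosomal genes of 0.07, the 32 autophagy and mitophagy genes of 0.02 and the 36 stress response genes of 0.05, with 0 of these 6 lists' members past both thresholds (1 oxidative phosphorylation and 1 autophagy gene had an unadjusted p under 0.05 in edgeR). The potassium channel gene *Kcnk12* (-0.73, with 8 to 36 counts per mouse) was the 1 of 42 ion channel genes that passed, and was lost without KO mouse 3 (-0.58) or wildtype mouse 1 (-0.59), and among 19 tested Parkinson's disease genes *Park7* was the 1 that passed.

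**Figure D5:**
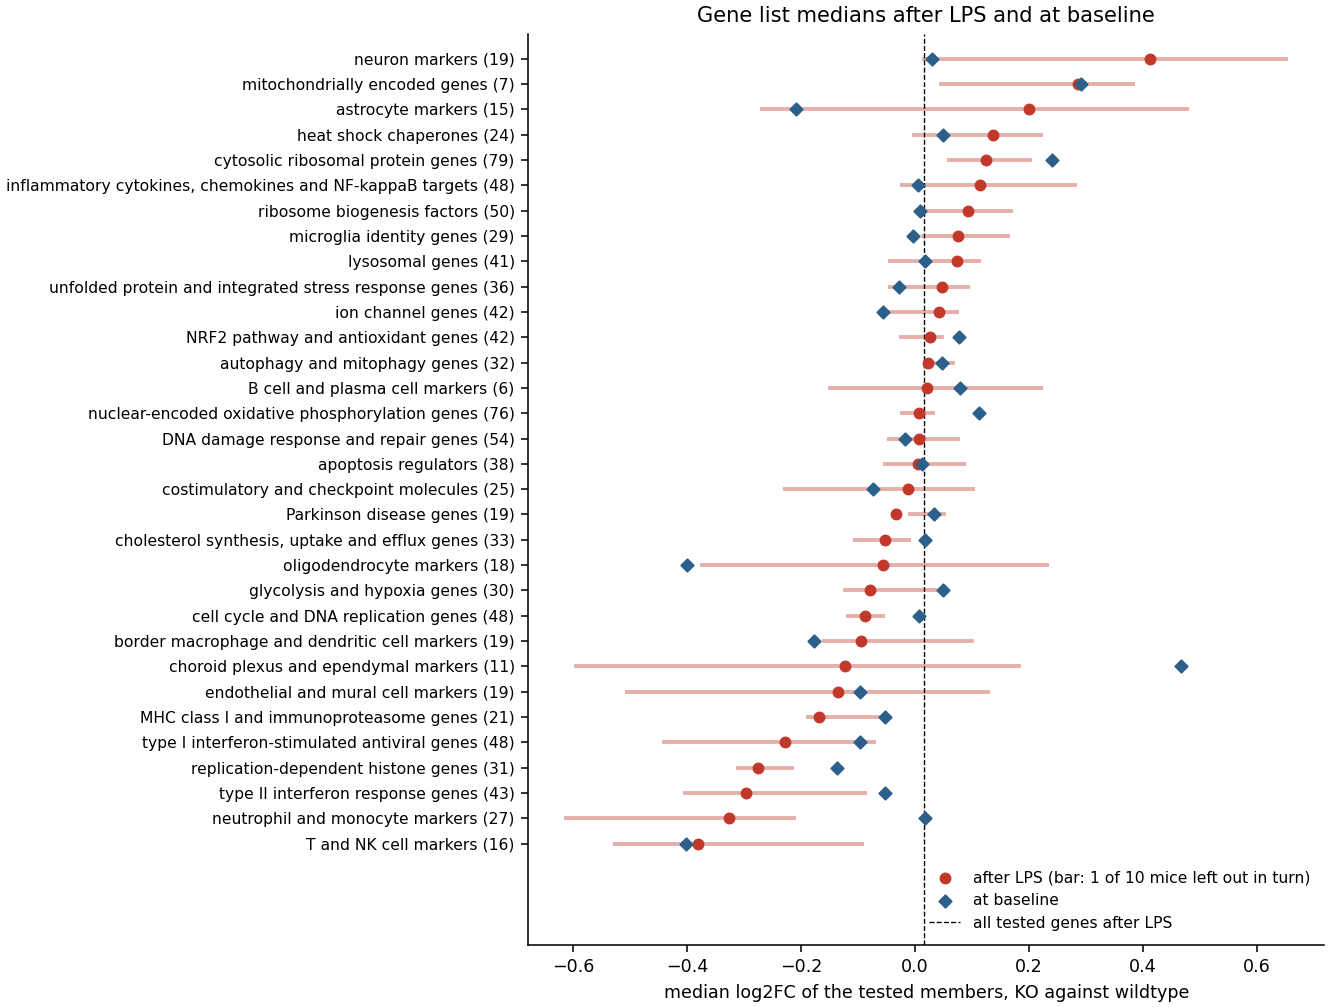
Median log2FC of the tested members of each gene list (number in brackets) in KO against wildtype mice after LPS (circles, with the range over fits that leave out 1 of the 10 mice) and at baseline (diamonds); the ribosomal RNA genes, at 2.88, are not drawn. The type II interferon and histone lists lie at -0.30 and -0.28 after LPS, and the bars of the brain cell markers are the widest.

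Markers of other cells were uneven between mice. Of the neuron markers 17 of 19 were above 0 (median 0.41), of the astrocyte markers 14 of 15 (0.20), of the endothelial and mural markers 1 of 19 (-0.13), of the oligodendrocyte markers 6 of 18 (-0.06) and of the choroid plexus markers 3 of 11 (-0.12). Of these 5 lists 0 members passed the thresholds (0 had an unadjusted p under 0.05 in edgeR). Without KO mouse 1 the medians were 0.01 for neuron, -0.27 for astrocyte, -0.51 for endothelial and -0.38 for oligodendrocyte markers. Without KO mouse 5 they were 0.65 for neuron, 0.48 for astrocyte, 0.13 for endothelial and 0.19 for choroid plexus markers. The oligodendrocyte median was 0.24 without wildtype mouse 2, and that of choroid plexus markers -0.60 without KO mouse 4. Neutrophil and monocyte markers had 23 of 27 below 0 and a median of -0.33 (0.02 at baseline; -0.61 without KO mouse 3 and -0.21 without KO mouse 1), with a summed level of 1577 to 2803 CPM in KO and 1858 to 3406 CPM in wildtype mice. Their mean deviation was -0.93 log2 units in KO mouse 1 and 0.54 in KO mouse 3, and their part in the interferon lists was not tested. Of the 6 tested B cell markers 3 were above 0, and *Siglec1* was the 1 of 19 tested border macrophage and dendritic cell markers that passed.

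The baseline mice are other animals and give the genotype contrast without LPS. *Park7* left aside, 39 of the 55 well-counted genes called after LPS (70.9%) had the same sign at baseline, against 59.1% of all well-counted genes. Their median absolute log2FC was 0.08 at baseline, against 0.07 for all well-counted genes, and 0.66 after LPS, where they were chosen by size, and 1 of them passed both thresholds at baseline, where 0.8% of all tested and 0.15% of well-counted genes did. The type II interferon list held 1 lower call at baseline, for *Cxcl9*, a T cell chemokine (log2FC -2.28), which after LPS was at -0.36 (SE 0.54). A direct test of whether the genotype difference changed with LPS, the interaction of genotype and LPS in the same edgeR fit, gave 0 genes with an adjusted p under 0.05 (0 in DESeq2 and in limma voom) and 180 (0.961%) with an unadjusted p under 0.05. *Batf2* was at -1.25 (SE 0.42) in that contrast and *Serpina3g* at -1.70 (SE 1.02). *Tnfrsf9* was at -1.83 (SE 1.31), but its baseline fold rests on 0 to 2 counts in KO and 1 to 7 in wildtype mice. With so few counts the contrast cannot decide on that gene. The difference after LPS is therefore not shown to differ from that at baseline for any single gene.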

How the data were processed

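The authors deposited a table of unnormalized read counts, by Ensembl gene and mouse, from stranded, ribosome-depleted total RNA libraries with paired reads. The submitters' processing notes name cutadapt and STAR 2.7.9a on GRCm39. Of 56980 genes, 56236 were named through GENCODE M39 on the same build, which also gave coordinates and promoter sequence. Each library is 1 mouse. Duplicate symbols used the ID with more counts.

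Genes were kept by filterByExpr (at least 10 counts in enough libraries and 15 in all), and counts were normalized with TMM and fitted with edgeR 4.0.16 (R 4.3.3) quasi-likelihood over 19 libraries in 4 groups. Calls needed an unadjusted p under 0.05 and a |log2FC| of at least 0.5, the study's thresholds; adjusted p-values are Benjamini-Hochberg over all tested genes. SE is |log2FC| divided by the square root of F. Log2 CPM used a prior count of 2. In an LPS library 3 counts were 0.167 to 0.256 CPM, a floor for counting error only. Depth was 11936364 to 18973244 counts. Mice are separate animals, and every pair within a group differed by more than counting noise. Scripts were tested on simulated data. Gene lists were described by counts and medians without a test. Members and lists were chosen with earlier results of these data known. Named were *Park7* and tested genes within 2 Mb, the 15 well-counted protein-coding or lncRNA genes with the smallest p in each direction (no Gm or Rik names), list members past the thresholds with the 4 most counted per list, ribosomal RNA genes and defining markers. *Tnf*, *Il1b*, *Il6*, *Nos2*, *Irf1*, *Cd74*, *Cxcl9*, *Hmox1*, *Nqo1*, *Ifng* and some members with an unadjusted p under 0.05 were named after their values were seen. Results of some listed genes are not reported here. Alternatives included DESeq2 1.42.0, voom of limma 3.58.1, other filters and scaling, and each mouse left out.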

Additional observations from a re-analysis of the deposited data

Results flagged for a closer look

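Each value below is that of 1 mouse whose gap to the nearest mouse of its group of 5, divided by the range of the group, was above Dixon's critical value. Of 82 groups examined, 12 values were set apart in this way, and chance alone sets apart about 1 group in 20. In KO mouse 3, *Tnfrsf9* was at 3.35 CPM, *Atp8a2* at 255 CPM, *Cdk6* at 699 CPM and *Trim30c* at 89.8 CPM, each above the other KO mice. In KO mouse 1, *mt-Rnr2* was at 625 CPM and *mt-Rnr1* at 599 CPM, and the next KO mouse had 103 and 101 CPM. In KO mouse 5, *Galnt3* was the highest of its group at 15.2 CPM and *Gbp8* the lowest at 0.361 CPM. Among wildtype mice, *Serpina3g* was at 20.02 CPM in mouse 4, *Mlph* at 267 CPM in mouse 1, *Park7* at 32.1 CPM in mouse 3 and *mt-Rnr2* at 38.9 CPM in mouse 2, each the highest of its group.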

How the results depend on the processing

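*Park7* and *Tnfrsf9* kept their direction and call, which uses the unadjusted p, under every alternative that gave them a value (log2FC -3.10 to -2.70 and -4.39 to -3.36 with 1 mouse left out). Their adjusted p is given for the fit of all 19 libraries only. The unadjusted p of *Tnfrsf9* in edgeR was 1.38e-06 there and 2.84e-05 with the 10 LPS libraries only. Neither had a value where each single library needed 10 counts. Genes called higher and lower (102 and 143) were 36 and 69 with the 10 LPS libraries only, 42 and 69 where each library needed 10 counts, 347 and 507 without a low-count filter, and 0 and 2 at an adjusted p under 0.05. Genes lower were 231 with other brain cell markers as a covariate. Well-counted genes called higher (29) were 13 with the LPS libraries only, 44 in DESeq2, 17 in limma voom (an alternative chosen after seeing the data) and 0 at an adjusted p under 0.05. Those called lower (27) were 49 with the marker covariate, 2 at an adjusted p under 0.05, 42 at a mean of at least 50 counts and 14 at 300. With 1 mouse left out, the counts ran from 100 to 204 (higher) and 105 to 270 (lower), and for well-counted genes from 22 to 80 and 24 to 59. The ribosomal RNA median ran from 1.48 without KO mouse 1 to 3.17 without KO mouse 5, and the other list medians moved by less than 1 SD between mice. The interaction gave 0 genes under each alternative. Of 979 repeats of the other named genes, 214 lost the call and none changed direction. With KO mouse 5 and wildtype mouse 1, the lowest in other brain cell markers, left out together (chosen after seeing the data), 25 of 49 named calls were lost. With the 10 LPS libraries only, 24 named calls ended: *Apaf1*, *Atp8a2*, *Atxn1*, *Bach1*, *Cd276*, *Cdk6*, *Chaf1b*, *Fanca*, *Galnt3*, *Gbp8*, *Ildr1*, *Kcnk12*, *Kmt5c*, *Mlph*, *Plk1*, *Prkca*, *Serpina3f*, *Siglec1*, *Tgtp2*, *Trim30c*, *Trp53i13*, *Txnrd1*, *Ung* and *mt-Rnr1*. In limma voom 14 and with the replicate block 11 ended. The causes were not tested.

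Equal replicate numbers did not pair KO with wildtype mice (correlations of deviations -0.57 to 0.30), and a replicate block gave 17 well-counted genes higher and 28 lower.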
